A study of Homo sapiens with 3 samples.

Results

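The nuclear genes for subunits of the mitochondrial respiratory chain and ATP synthase were examined in the established human melanoma line SK-Mel-28, in which melanotransferrin had been targeted by a stably expressed hairpin siRNA. Melanotransferrin (MTf, gene symbol MELTF) is an iron-binding homologue of transferrin held at the cell surface. The members were 53 subunit genes of complexes I to IV and ATP synthase, taken by function, and every probe set of the Affymetrix U133 Plus 2.0 array was used whose annotation names 1 of these genes and no other. This gave 103 probe sets for 48 of the 53 genes, out of 54613 probe sets and 19775 genes with a probe set of their own. A further 3 members (NDUFS5, NDUFS8 and UQCRH) were represented only in probe sets that list several genes, and SDHB and UQCRFS1 were not analysed here.

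There were 3 arrays of total RNA. The scrambled control was 1 array of cells carrying a scrambled insert in the vector pSilencer 3.1-H1 neo, and the siRNA group was 2 arrays, B1 and B2 in the labels and siRNA arrays 1 and 2 here, of cells carrying the MELTF hairpin in the same vector. All 3 thus come from cells stably transfected with that vector, and whether the siRNA arrays are separate clones or cultures is not said, so that a p-value here reflects no more than how far these arrays lie apart, a spread that may be technical. Per the labels the hairpin targets nucleotides 2048 to 2066 of the MELTF transcript, and the series' design text gives another position. In the brightest MELTF probe set the scrambled signal was 32608, against 18968 and 18974 with siRNA (log2 difference -0.78 ± 0.17, SE; limma adjusted p = 0.0699), while the second brightest read 8284 against 10567 and 11199 (0.39 ± 0.20; adjusted p = 0.318). The other 2 MELTF probe sets differed by -0.95 (915.2 against 699.7 and 283.6) and 0.29 (546.4 against 693.7 and 665.7), so that the 4 probe sets of the targeted gene did not move together. All 7 melanocyte markers with a probe set of their own exceeded the highest bacterial control signal (97.2) on every array, though their levels shifted: TYRP1 fell from 53204 to 5022 and 12370.0 (-2.75; limma adjusted p = 0.0374), TYR lay higher (0.86; adjusted p = 0.0529) and MITF lower (-0.46; adjusted p = 0.236). TYRP1 thus differed by more than any member described below. Of the markers of other cells, 2 of 4 leukocyte genes (CD3E and LAPTM5, but neither PTPRC nor CD14), 1 of 3 endothelial genes (PECAM1) and 2 of 5 epithelial genes (KRT8 and KRT18, but not EPCAM) exceeded it on every array. The 6 fibroblast markers summed to 1757 for the control and to 5666 and 5883 with siRNA. LUM (598.6 against 4850.0 and 4840.6) made up most of the siRNA sums, though not of the control sum. The mean log2 differences of COL1A1 (-0.33), COL1A2 (-0.30), COL3A1 (-0.090), DCN (-0.25) and PDGFRB (-0.17) were all below 0. Of these, COL1A2, COL3A1 and PDGFRB did not exceed the bacterial control on every array. The part of other cells in the results was not tested. In such bulk RNA, fewer cells of a type and less RNA per cell cannot be told apart.

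Complex I takes electrons from NADH and complex II takes them from succinate, as part of the tricarboxylic acid cycle. Both pass them through coenzyme Q to complex III, and cytochrome c carries them on to complex IV, where oxygen is reduced. Complexes I, III and IV pump protons across the inner mitochondrial membrane, and ATP synthase uses the return flow to make ATP. Most subunits are encoded in the nucleus and a core set of complexes I, III, IV and ATP synthase in mitochondrial DNA, so that the genomes have to be expressed together. Several complexes hold iron in haem or iron-sulphur clusters. In melanoma cells the balance between respiration and glycolysis is known to differ between lines and states.

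The respiratory chain genes as a group lay close to the scrambled level. The log2 difference used here is the mean of log2(signal + 47.4) over the siRNA arrays minus the value of the scrambled array. Over the 48 measured members its median was -0.026 (arrays -0.021 and 0.025, siRNA array 1 first), beside 0.097 over all 12386 genes tested. The quartiles of the members lay at -0.20 and 0.19, against -0.25 and 0.45 for all genes, and the median size of the difference was 0.19 for members and 0.35 for all genes. All 48 members also passed a stricter filter, a mean above the 75th percentile of probe sets, with which the median of all genes was 0.040. Dim probe sets had larger SEs, such as 0.40 for 1 of NDUFA2. The values and shares for all genes, here and below, were not matched to the members for signal. Of the members, 25 lay within 0.2 of zero. In limma's test with Benjamini-Hochberg adjustment over all 27306 probe sets tested, 0 of 85 member probe sets and 0 of 48 member genes passed 0.05, where 2.09% of all probe sets (1.19% higher and 0.905% lower with siRNA) and 2.64% of all genes did. Without adjustment, p was under 0.05 for 13 of the 85 member probe sets (15.3%), against 20.2% of all, and for 9 of the 48 member genes (18.8%), against 22.9% of all (5 higher and 4 lower among members, with 14.0% higher and 8.92% lower among all genes). With the stricter filter, 0 of 68 member probe sets and 9 of all 13653 (0.0659%) passed 0.05 after adjustment. The SE of a member's difference was 0.16 to 0.30, and a p short of the threshold does not show that a gene was unchanged. The 48 brightest probe sets had signals of 1878 or more on every array. The 18 member probe sets not tested, for low signal, belong to genes that had a brighter probe set and read 7.9 to 179.2.

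**Figure D1:**
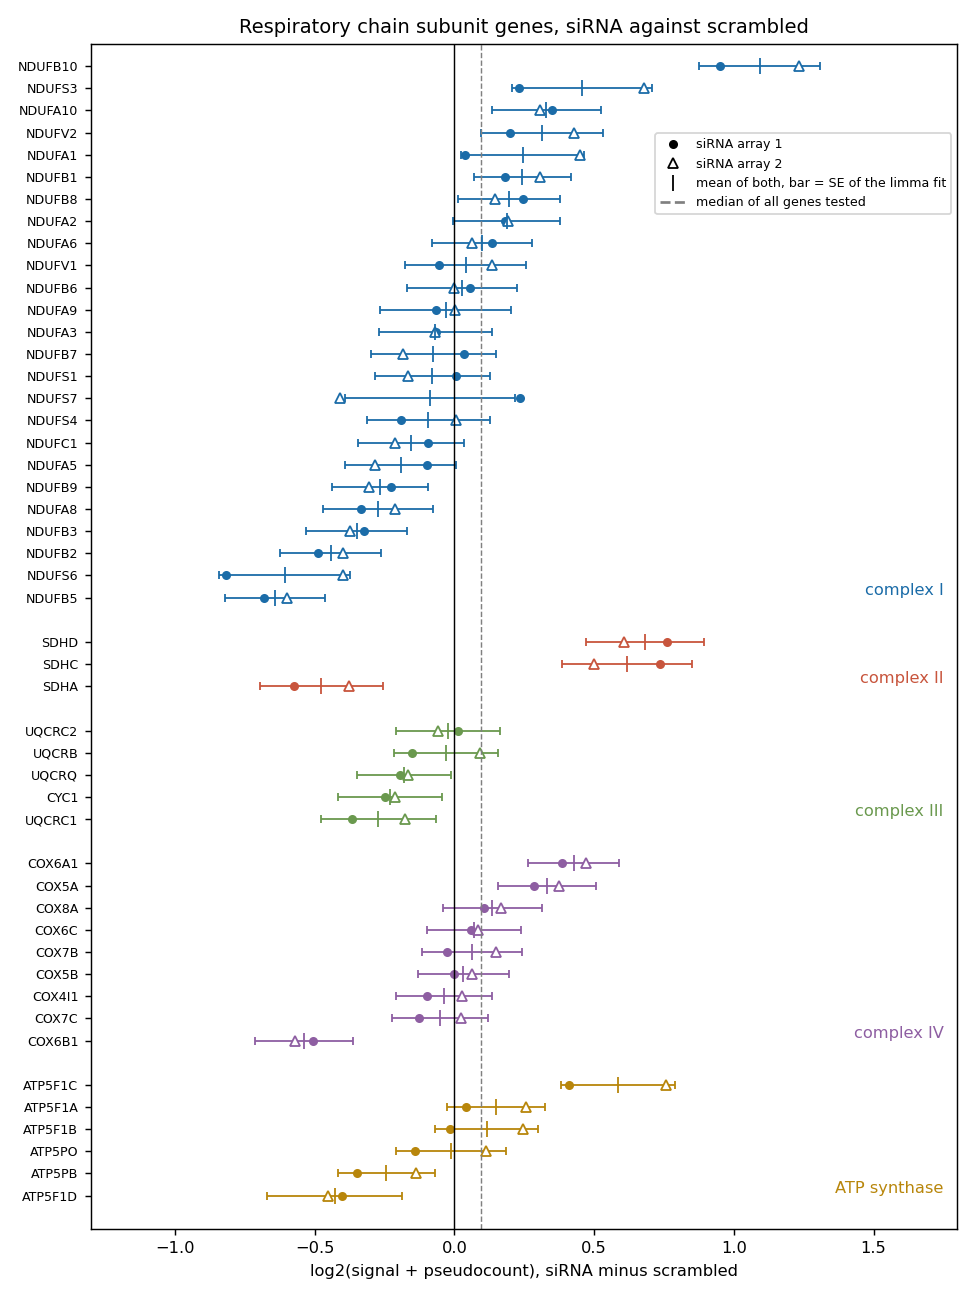
Log2 difference of each of the 48 member genes from the scrambled array (x axis, log2 units), by complex, for siRNA array 1 (filled circles), siRNA array 2 (open triangles) and their mean (vertical tick, bar = SE of the limma fit). The dashed line is the median of all genes tested, 0.097, and NDUFB10 at 1.09 stands highest while NDUFB5 at -0.64 stands lowest.

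The direction was mixed within the group. By the mean difference 22 members lay above 0 and 26 below, and of all genes tested 7123 lay above and 5263 below. Both siRNA arrays read above the scrambled array for 18 members (37.5%; 46.7% of all genes) and both below it for 16 (33.3%; 32.5% of all genes), and for the other 14 the scrambled array lay between the siRNA arrays or level with 1 of them. Both arrays were more than 0.5 above on the log2 scale for 3 members, NDUFB10, SDHD and SDHC (6.25%, against 15.7% of all genes). Both were more than 0.5 below for COX6B1 and NDUFB5 (4.17%, against 8.71% of all genes). The deposited scaling left the median probe set higher on the siRNA arrays, and with arrays centred on their medians NDUFB10 (0.92, adjusted p = 0.0394), NDUFB5 (-0.81, adjusted p = 0.020) and COX6B1 (-0.71, adjusted p = 0.0331) passed the threshold, 3 of 85 member probe sets (3.53%) where 5.60% of all probe sets did. Over all probe sets, centring turned 324 higher and 247 lower calls into 594 higher and 934 lower.

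Complex I, the NADH dehydrogenase, had 25 measured members with a median of -0.068 (11 above 0 and 14 below). NDUFB10, an accessory subunit of the membrane arm, had the highest value of any member. The control signal was 5243 and the siRNA signals were 10183 and 12389, a log2 difference of 1.09 ± 0.22 (SE; 2.13-fold; limma adjusted p = 0.0540). Both siRNA arrays were thus well above the control, by more than they differed from each other. Its second probe set pointed the same way with a smaller difference, at 2038 against 2752 and 2969 (0.48 ± 0.24, limma adjusted p = 0.315). The brighter probe set is of the _s_at kind and the second of the _x_at kind. Whether they are independent measurements was not tested. NDUFS3, a core subunit of the peripheral arm, read 5109 against 6014 and 8208 (0.46 ± 0.25; adjusted p = 0.362). NDUFV2, which carries an iron-sulphur cluster in the NADH-oxidising module, read 5659 against 6510 and 7625 (0.31 ± 0.22). The accessory subunit gene NDUFA10 read 8264.5 against 10553 and 10244 (0.33 ± 0.19). These 3 were above the control on both arrays, and each difference was under 2 SE.

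At the other end, NDUFB5, a membrane arm accessory subunit, read 25254 for the control against 15719 and 16647 (-0.64 ± 0.18; adjusted p = 0.110). The siRNA arrays lay close together and both below the control. NDUFS6, a zinc-binding subunit of the peripheral arm, read 13687 against 7759 and 10377 (-0.61 ± 0.23; adjusted p = 0.208). NDUFB2 was measured by a pair of bright probe sets that lay on the same side, at 22844 against 16290 and 17320 (-0.44 ± 0.18) and 9691 against 7122 and 6239 (-0.54 ± 0.21). NDUFB3 read 19575 against 15621 and 15116 (-0.35 ± 0.18). NDUFB2, NDUFB3, NDUFB5 and NDUFB10 all belong to the membrane arm, so that values at both ends came from 1 part of the complex. The core subunit genes NDUFS1, NDUFS7 and NDUFV1 lay near 0 (-0.079, -0.088 and 0.040), with the scrambled signal between those of the siRNA arrays for NDUFS7 (3660 against 4312 and 2746) and NDUFV1 (5742 against 5530 and 6306).

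**Figure D2:**
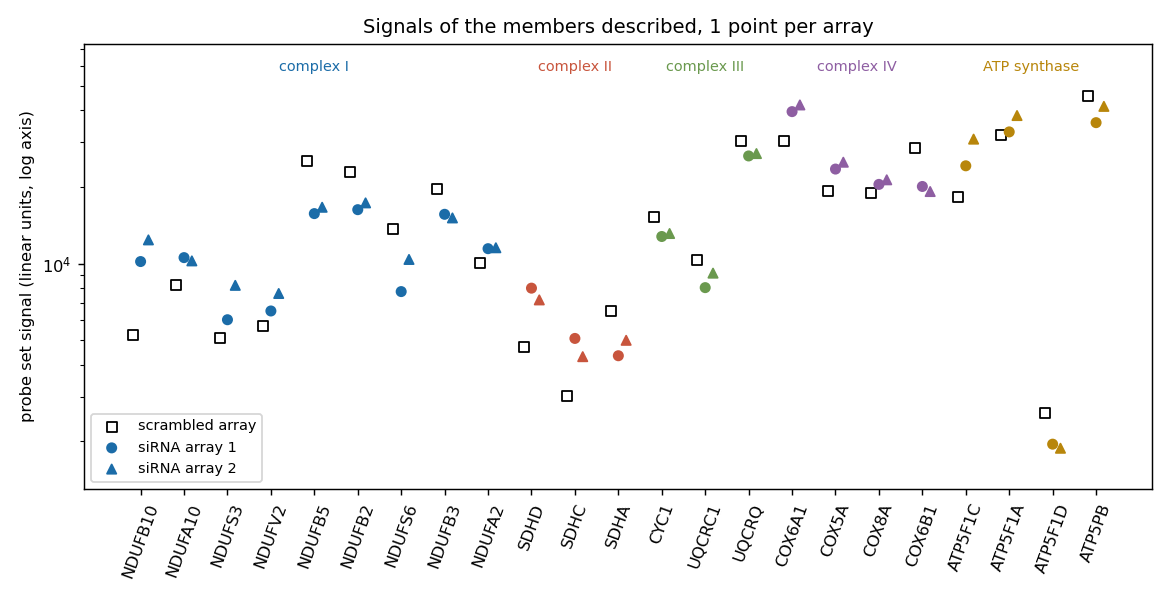
Probe set signal (y axis, linear units on a log axis) of the 23 members described in full, with 1 point for each array: scrambled (open square), siRNA array 1 (circle) and siRNA array 2 (triangle). Levels are comparable between arrays for a gene, not between genes. NDUFB10, SDHD and SDHC show the scrambled array lowest with the widest gap. NDUFB5 and COX6B1 are among the members that show it highest, as do NDUFS6, NDUFB2, NDUFB3 and SDHA.

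In complex II, the succinate dehydrogenase shared with the tricarboxylic acid cycle, the measured subunits did not lie on 1 side. SDHD, a membrane anchor subunit, read 4708 against 8004 and 7196 (0.68 ± 0.21, SE; 1.61-fold; adjusted p = 0.135). SDHC, the partner anchor with which SDHD binds haem and coenzyme Q, read 3027 against 5077 and 4304 in the probe set that stands for it (0.62 ± 0.23; adjusted p = 0.198). SDHA, the catalytic flavoprotein, read 6490 against 4341 and 4991 (-0.48 ± 0.22; adjusted p = 0.285). The anchors were above the control on both arrays and the flavoprotein below it, and none passed the test. SDHA had 1 probe set, of the _x_at kind. Without _s_at and _x_at probe sets SDHA was not measured and SDHC was at -0.52. The median of the 3 was 0.62, and with the mean over each gene's probe sets it was 0.12.

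SDHC was the member whose probe sets differed most. Of its 6 tested probe sets, 1 with a higher scrambled signal read 3715 against 4777 and 2603 (-0.074 ± 0.35), and a dimmer 1 read 570.6 against 462.5 and 314.9 (-0.52 ± 0.36). In 2 of the 6 the siRNA arrays lay on either side of the control. NDUFA2, a complex I accessory subunit, was the other member whose tested probe sets spanned more than 1 on the log2 scale. Its brightest read 10089 against 11443 and 11536 (0.19 ± 0.19) and a dimmer 1 read 397.0 against 175.9 and 224.8 (-0.85 ± 0.40). By contrast the 3 bright probe sets of ATP5F1C differed from the control by 0.51 to 0.58. All 3 are of the _x_at kind, and whether they are independent measurements was not tested. In NDUFS1 the 3 dimmest of 5 probe sets were above the control on siRNA array 1 and below it on siRNA array 2, as in the 1 reading 825.6 against 1619 and 749.9. In NDUFA10 a dim probe set (145.3 against 258.2 and 482.5) differed by 1.06 and the bright 1 by 0.33. In ATP5PB a dim probe set (792.2 against 361.3 and 374.5) differed by -1.02 and the bright 1 by -0.24. Which transcripts the dim probe sets detect was not tested.

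**Figure D3:**
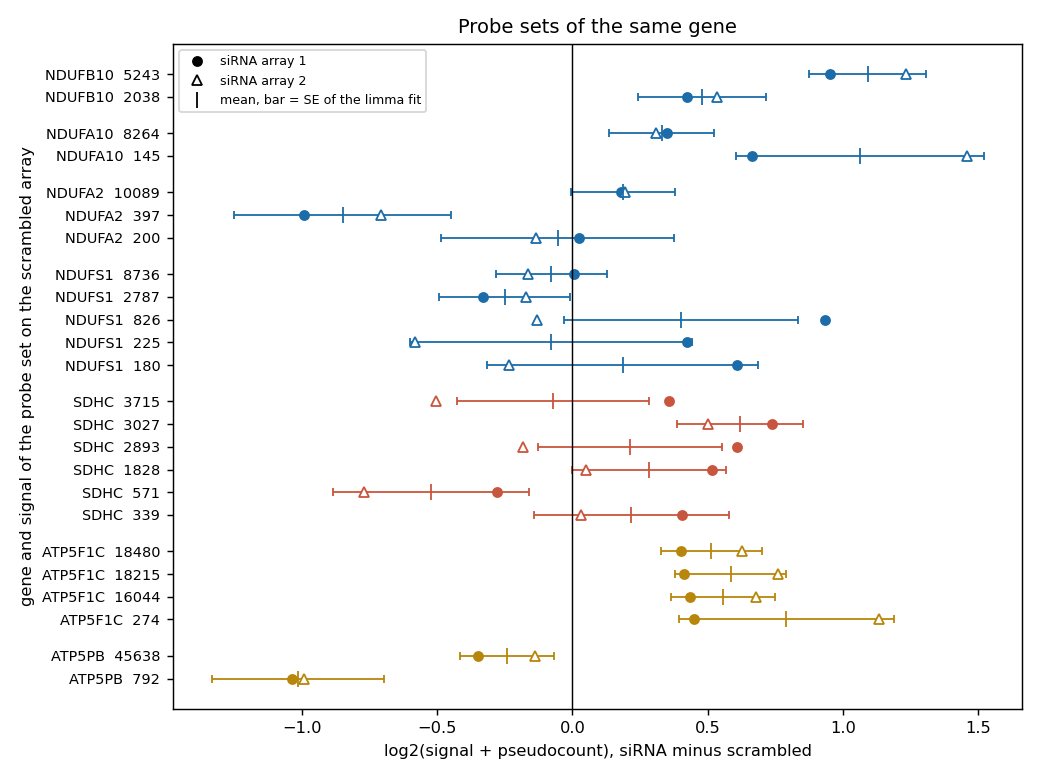
Log2 difference (x axis, log2 units) for each tested probe set of 7 members, listed with its signal on the scrambled array: siRNA array 1 (filled circle), siRNA array 2 (open triangle), mean (tick) and SE of the limma fit (bar). The probe sets of SDHC run from -0.52 to 0.62, those of NDUFA2 from -0.85 to 0.19, and those of ATP5F1C from 0.51 to 0.79 (means).

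Complex III, which passes electrons from coenzyme Q to cytochrome c, had 5 measured members, all below 0, with a median of -0.18 (arrays -0.19 and -0.16). UQCRC2 and UQCRB lay above 0 with quantile normalization, without _s_at and _x_at probe sets, and with the mean over a gene's probe sets. UQCRB was also above it with siRNA array 1 left out, and UQCRC2 with siRNA array 2 left out. UQCRC1, a core protein, read 10374 against 8042 and 9168 (-0.27 ± 0.20; adjusted p = 0.510). CYC1, the haem-bearing cytochrome c1, read 15196 against 12777 and 13124 (-0.23 ± 0.19; adjusted p = 0.541). UQCRQ, a small accessory subunit, read 30332 against 26496 and 27067 (-0.18 ± 0.17; adjusted p = 0.607). These 3 were below the control on both arrays by little more than the SE. UQCRC2 and UQCRB differed by -0.022 and -0.030, with the control between the siRNA arrays, and the second bright UQCRC2 probe set read 6688 against 8667 and 8421 (0.35 ± 0.20). The other tested UQCRB probe sets differed by 0.014 and 0.22.

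Complex IV, the cytochrome c oxidase, had 9 members with a median of 0.063, and 6 of them lay within 0.15 of 0. COX6A1, an accessory subunit, read 30332 against 39581 and 42047 (0.43 ± 0.16; adjusted p = 0.207). COX5A, a subunit on the matrix side, read 19283 against 23528 and 25032 (0.33 ± 0.18; adjusted p = 0.346). COX8A read 19020 against 20480 and 21345 (0.14 ± 0.18), or -0.033 with arrays centred. COX6B1, which faces the intermembrane space and bridges the dimer, read 28546 against 20098 and 19194 (-0.54 ± 0.17; adjusted p = 0.149). It was the 1 member of the complex below the control on both arrays. COX4I1, COX5B, COX6C, COX7B and COX7C lay between -0.051 and 0.072.

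ATP synthase had 6 members with a median of 0.051 (arrays -0.078 and 0.18). ATP5F1C, the central stalk subunit that turns inside the catalytic head, read 18215 against 24235 and 30850 (0.58 ± 0.20, SE; adjusted p = 0.171). ATP5F1A, a catalytic head subunit, read 31979 against 32940 and 38192 (0.15 ± 0.18), or -0.020 with arrays centred. ATP5F1D, a small subunit of the central stalk, read 2589 against 1949 and 1878 (-0.43 ± 0.24; adjusted p = 0.375). ATP5PB, of the peripheral stalk, read 45638.5 against 35818 and 41497 (-0.24 ± 0.17; adjusted p = 0.484). The central stalk genes ATP5F1C and ATP5F1D thus lay on opposite sides of the control on both arrays. ATP5F1B, the catalytic subunit, and ATP5PO read 32054 against 31689 and 38044, and 17265 against 15670 and 18672, with the control between the siRNA arrays.

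The 7 probe sets that list a member together with other genes differed by -0.11 to 0.40 (lowest adjusted p = 0.460), so that the members seen only there showed no call either.

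Promoters of nuclear respiratory genes are known for sites of NRF1, of ETS factors such as GABP, and of YY1. The RefSeq promoter windows (GRCh38.p14, 250 bases before to 50 after the start site) were found for 44 of the 53 members and were searched on both strands. The palindromic NRF1 consensus (the capitals of ATP5F1C below) was in 3 of the 44 (6.82%) and in 1.36% of all 27305 promoters, CCGGAAGT (ETS) in 6 (13.6%, all 4.44%) and AAGATGGC (YY1) in 9 (20.5%, all 3.03%). At least 1 of the 3 was in 17 members (38.6%, all 8.30%). The 15 measured members with a match had a median log2 difference of -0.068 (from -0.27 to 0.68) and the 25 without had 0.040 (from -0.61 to 1.09). Below are 4 windows from 150 bases before to 30 after the start site, chosen to show each kind of match beside members above, at and below the scrambled level, with matches in capitals. SDHD holds both an NRF1 and an ETS match, ATP5F1C an NRF1 match, COX5B (0.032) a pair of ETS matches and ATP5PB (-0.24) a YY1 match on the opposite strand.
SDHD (chr11:112086723-112086902, plus strand): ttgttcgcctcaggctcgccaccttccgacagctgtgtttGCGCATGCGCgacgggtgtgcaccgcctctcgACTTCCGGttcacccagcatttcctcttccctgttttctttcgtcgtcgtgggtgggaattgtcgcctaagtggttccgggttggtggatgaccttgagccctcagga
ATP5F1C (chr10:7788027-7788206, plus strand): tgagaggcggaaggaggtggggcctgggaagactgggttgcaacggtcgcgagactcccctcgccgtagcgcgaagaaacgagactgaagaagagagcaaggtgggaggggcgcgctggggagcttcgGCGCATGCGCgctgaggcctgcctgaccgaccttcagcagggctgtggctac
COX5B (chr2:97645912-97646091, plus strand): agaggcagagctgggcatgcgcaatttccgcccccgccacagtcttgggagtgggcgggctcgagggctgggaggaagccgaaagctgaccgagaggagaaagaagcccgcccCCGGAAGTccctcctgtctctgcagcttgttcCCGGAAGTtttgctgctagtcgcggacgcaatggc
ATP5PB (chr1:111449314-111449493, plus strand): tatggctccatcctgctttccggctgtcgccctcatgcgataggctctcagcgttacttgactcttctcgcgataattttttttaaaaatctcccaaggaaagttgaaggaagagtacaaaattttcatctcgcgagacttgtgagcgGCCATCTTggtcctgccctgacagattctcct
The NRF1 match reads the same on both strands, and no matches overlap in these windows. NDUFA8, the third member with an NRF1 match, read 11332 against 8978 and 9772 (-0.27 ± 0.20), on the other side of the control from SDHD and ATP5F1C. A match describes these letters only.

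The position of the members on the chromosomes was also set beside their values, a comparison chosen after the values were seen. For each member the median difference of the 10 nearest genes tested on each side was taken. Across the 48 members the log2 difference correlated with that of the neighbours at Pearson r = 0.51, or 0.49 for the 46 not on chromosome 3. It was 0.39 across the 230 members and genes of the further lists and 0.22 across all 12374 genes with a position, where genes are not independent replicates and all share the scrambled array. ATP5F1C (neighbours 0.56), SDHD (0.38), SDHC (0.31) and COX6A1 (0.32) had neighbours above 0, and NDUFB5 (-0.31) had neighbours below 0. NDUFB10 lay far above its neighbours (0.21), and SDHA (0.053), CYC1 (0.30), NDUFS6 (-0.11) and COX6B1 (-0.048) were among the members well below theirs.

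NDUFB5 is on the long arm of chromosome 3, as is MELTF. The 369 genes tested on that arm, taken from PROS1 onward, had a median of -0.34 (277 below 0 and 92 above; 20 passed lower and 0 higher). The 339 of the short arm had a median of 0.084 (139 below 0 and 200 above, with 1 passed lower and 4 higher). The 11666 on other chromosomes had 0.11 (4844 below 0 and 6822 above, with 119 passed lower and 182 higher). Over all genes 1.14% passed lower. The mitochondrial genes of the lists used here on that arm had a median of -0.71. Besides NDUFB5 they are the complex I subunit gene NDUFB4 (45944 against 33127 and 32201), the complex I assembly genes TIMMDC1 (24225 against 13099 and 14607) and ACAD9 (1234 against 1311 and 1508), and the mitochondrial ribosomal protein genes MRPL3 (36840 against 21209 and 21648) and MRPS22 (15728 against 8303 and 8440). All but ACAD9 were below the control on both arrays, with adjusted p from 0.0642 (MRPS22) to 0.155 (NDUFB4). The member UQCRC1 is on the short arm, at -0.27. The cause of the shift of the long arm was not tested.

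**Figure D4:**
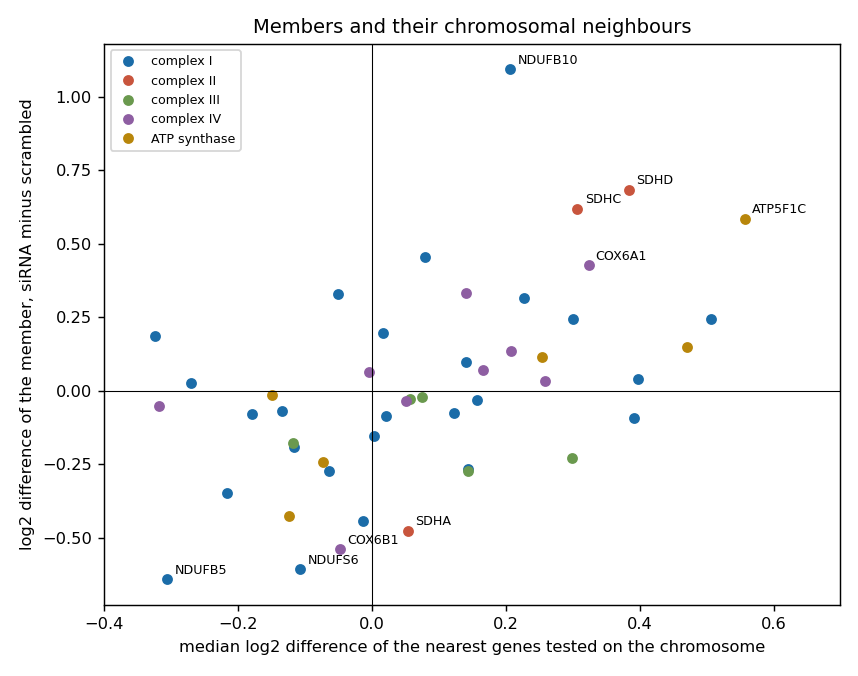
Log2 difference of each of the 48 members (y axis) against the median log2 difference of the 10 nearest genes tested on each side of it (x axis), coloured by complex. Members with higher neighbours tend to lie higher (r = 0.51), and NDUFB10 stands far above its neighbours while SDHA, CYC1, NDUFS6 and COX6B1 are among those well below theirs.

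Around the members, other mitochondrial gene groups were read from fixed lists. Among 26 tested subunits outside the member list, 0 were called by limma and the median was 0.075. Of the 26, 4 had p under 0.05 unadjusted, against 22.9% of all genes. NDUFV3, of the NADH-oxidising module, read 2353 against 3222 and 3880 (0.58 ± 0.24), and NDUFB4 differed by -0.49 ± 0.16 (adjusted p = 0.155). Of 13 mitochondrially encoded subunits 7 had a probe set of their own, with a median of 0.082 and 0 called (1 with p under 0.05 unadjusted). MT-CO3 read 4945 against 7063 and 7378 (0.54 ± 0.21; adjusted p = 0.205) and MT-ATP6 read 62016 against 49487 and 55967 in its brighter probe set (-0.24 ± 0.16). The dimmer MT-ATP6 probe set was on the other side, at 607.3 against 875.6 and 1148 (0.68 ± 0.30). The brightest mitochondrial signals, such as 1 of the MT-CO2 probe sets at 87322 against 77987 and 86672, were near the highest of the table, 91907. MT-ND6 read 1103 against 2470 and 1273, high on siRNA array 1. On that array control probe sets for 18S ribosomal RNA were 4.30 times the scrambled signal. The part of the ribosomal signal in the MT-ND6 reading was not tested.

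The 51 assembly factors tested had a median of 0.037 and 0 calls (12 with p under 0.05 unadjusted, 7 above and 5 below). Of all genes, 22.9% had such a p, 14.0% above and 8.92% below, to set beside this list and the next ones. TIMMDC1 had the lowest value (-0.81 ± 0.19; adjusted p = 0.0759), and FOXRED1, which acts in complex I assembly, was among the highest, at 577.8 against 1042 and 1111 (0.85 ± 0.28; adjusted p = 0.154). Among 19 genes of electron carriers and coenzyme Q synthesis the median was -0.16 with 0 calls (6 with p under 0.05 unadjusted). COQ4 read 2145 against 1140 and 1133 (-0.89 ± 0.26; adjusted p = 0.118) and COQ6, a hydroxylase of coenzyme Q synthesis, read 399.5 against 759.4 and 790.1 (0.88 ± 0.30; adjusted p = 0.163). The list of regulators of biogenesis and mitochondrial DNA expression (19 tested) had a median of -0.15 and 0 calls (6 with p under 0.05 unadjusted, 1 above and 5 below). NRF1 itself, the transcription factor named above, read 926.7 against 543.4 and 522.8 (-0.75 ± 0.30; adjusted p = 0.219) and POLG, the mitochondrial DNA polymerase, read 1051 against 2484 and 1816 (0.98 ± 0.29; adjusted p = 0.120). Of the other factors named with the promoter sites, YY1 differed by 0.24 and the GABP genes GABPA and GABPB1 by -0.48 and -0.24. The 50 mitochondrial ribosomal protein genes had a median of -0.11 and 0 calls. Among the 50, 12 had p under 0.05 unadjusted, against 22.9% of all genes. Of these, 11 were below the control, where 1105 of the 2837 such genes overall were. MRPS22 (-0.91 ± 0.19) was lowest by the smaller of its differences, and MRPL19 read 2134 against 3091 and 3160 (0.54 ± 0.23; adjusted p = 0.251).

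The tricarboxylic acid cycle enzymes, which supply NADH and succinate to complexes I and II, held the only call of these lists. IDH2, the mitochondrial NADP-dependent isocitrate dehydrogenase, rose from 981.4 to 2565 and 4041 (1.67 ± 0.32, SE; limma adjusted p = 0.0493), just inside the threshold and past it under 3 of the 10 tested alternatives (adjusted p 0.0155 to 0.170). The other IDH2 probe set was below the filter, at 17.9 against 238.2 and 334.3. The 17 tested genes had a median of 0.30 (arrays 0.12 and 0.27), and 6 of the 17 had p under 0.05 unadjusted, against 22.9% of all genes. All 6 were above the control, as were 1732 of the 2837 such genes overall. OGDH read 231.6 against 619.9 and 557.7 (1.19 ± 0.33; adjusted p = 0.109), SUCLA2 read 1116 against 2474 and 2454 (1.11 ± 0.25; adjusted p = 0.0698), and CS, citrate synthase, read 3775 against 5950 and 7646 (0.83 ± 0.24; adjusted p = 0.118). IDH3A, of the NAD-dependent isocitrate dehydrogenase, was lowest, at 5683 against 4175 and 3921 (-0.49 ± 0.22; adjusted p = 0.269). No test of the difference between this list and the subunit genes was run.

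**Figure D5:**
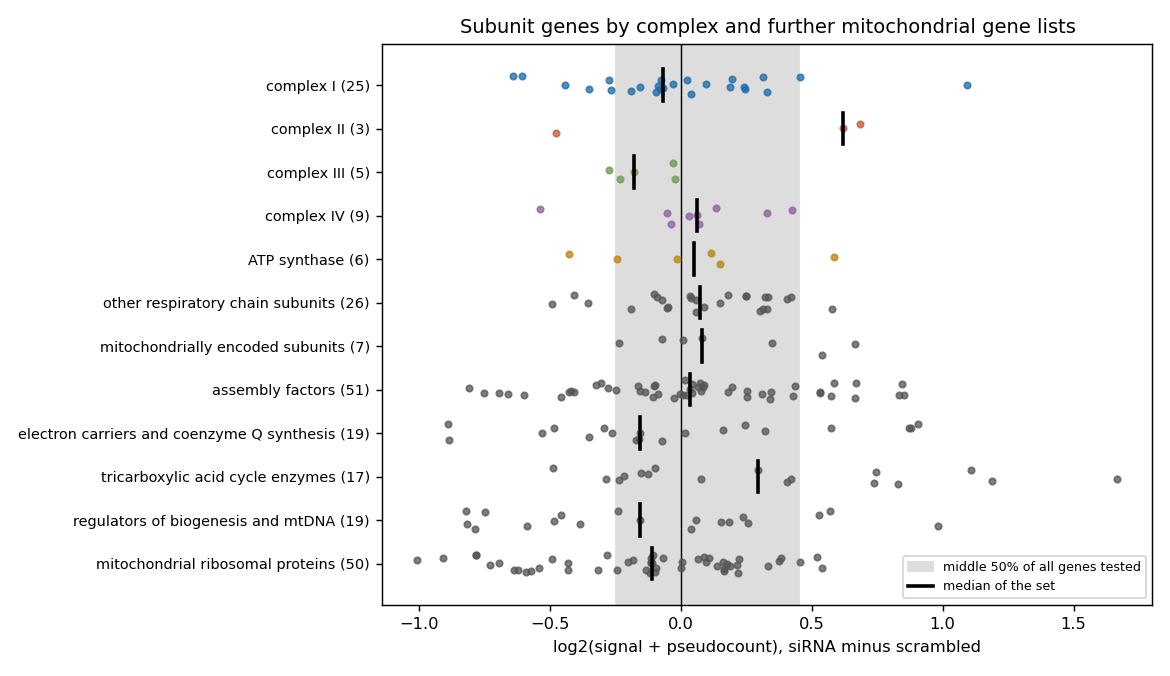
Log2 difference of each tested gene (points; x axis, log2 units), by complex for the members (coloured) and for 7 further mitochondrial lists (grey), with the number of genes in brackets, the median of each set (black bar) and the range between the quartiles of all genes tested (shaded, -0.25 to 0.45). Most complex IV and complex III genes lie inside the shaded range, and the tricarboxylic acid cycle list reaches farthest to the right, at IDH2 (1.67).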

How the data were processed

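Per the submitters' processing notes the authors made the deposited values with GCOS 1.3. They are linear intensities, 1 for each probe set, and the mean of each array after trimming 2% at each end was near 1000 (1000.14, 1000.12 and 1000.13). Which other settings and which build applied was not stated in the sources read. Detection calls played no part. Of 54675 probe sets, 62 controls were left out. A single gene was annotated for 41091, more than 1 for 1801, and no gene for 11721. Symbols were checked through Entrez identifiers in the RefSeq gene table (54 without a match, 0 renamed).

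Signals were analysed as log2(signal + 47.4), the 25th percentile of all signals, a scale that understates changes of dim probe sets. Probe sets with a mean above the median (7.74) were tested with limma 3.58.1 in R 4.3.3 (lmFit, eBayes with a trend, Benjamini-Hochberg at 0.05), which has 1 residual degree of freedom, from the siRNA arrays, plus 6.36 from moderation. The single control array is taken to vary as they do, and the number of arrays limits the precision. A gene stands as its probe set with the highest mean. There were 0 value columns of other samples. The fit was tested on simulated data in which every array had the spread of the siRNA arrays. Such data cannot test whether the control array varies as they do.

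The members and lists were chosen with earlier results of these data known. Members were named by complex: the 3 (complex I: 4) highest and lowest by the smaller of both array differences, where these had the same sign, any past the threshold, and any whose tested probe sets spanned more than 1. Further lists name their calls and both ends. Other genes were added after their values were seen: NDUFA8, NDUFS1, NDUFS7, NDUFV1, UQCRB, UQCRC2, the remaining complex IV and ATP synthase members, the chromosome 3 genes, MT-CO2, MT-ND6, CYC1 and NDUFS6 beside their neighbours, SUCLA2, CS and the marker genes. YY1, GABPA and GABPB1 were also added after their values were seen. Alternatives changed the pseudocount, filter, scaling, moderation, probe sets and arrays.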

Additional observations from a re-analysis of the deposited data

Results flagged for a closer look

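The control probe sets for 18S ribosomal RNA, used in no comparison, stood out. Their median on siRNA array 1 was 4.30 times that of the control, and on siRNA array 2 it was 0.985 times. The median member difference was -0.021 on siRNA array 1 and 0.025 on siRNA array 2.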

How the results depend on the processing

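No member passed the threshold in any of the 10 alternatives with a test except with arrays centred on their medians, where 3 probe sets and 3 genes did. Over all probe sets the calls ran from 1 (no filter, or no trend) to 1528 (arrays centred). Among other results, 25 values (1 of SDHC, the others medians of further lists) were counted as moved, and the IDH2 call was lost in 7 alternatives. For medians the limit was the standard deviation of the array medians, which is smaller than the gap between them. Some of the counted medians thus moved by less than that gap. The assembly factor median went from 0.037 to 0.052 without _s_at and _x_at probe sets, with array medians of 0.0513 and 0.0325. The median of all members was -0.026. It was 0.073 with quantile normalization, -0.20 with arrays centred, 0.025 without _s_at and _x_at probe sets, 0.028 with the mean over a gene's probe sets, and -0.021 to 0.025 with an siRNA array left out. The complex I median (-0.068) was -0.0041, -0.24, -0.081 and -0.031 in the same order, and -0.0016 to 0.0063 with an array left out. The complex II median (0.62) was 0.45 with arrays centred, 0.080 without _s_at and _x_at probe sets, 0.12 with gene means, and 0.36 to 0.50 with an array left out. Complex III (-0.18) was -0.090 with quantile normalization and -0.35 with arrays centred, and complex IV (0.063) was 0.15 and -0.11, with 0.00040 to 0.085 when an array was left out. The ATP synthase median moved by less than the gap between arrays, with -0.078 to 0.18 when an array was left out. Of all 48 members, 9 turned from above to below 0 with arrays centred, 6 from below to above with quantile normalization, 8 turned with gene means, 8 of the 39 left without _s_at and _x_at probe sets, and 7 with either siRNA array left out. Among the members named by rule, these were NDUFA2 (-0.85) and SDHC (-0.52) without _s_at and _x_at probe sets, NDUFA2 (-0.24) with gene means, and COX8A (-0.033) and ATP5F1A (-0.020) with arrays centred. The cause was not tested. With an array left out there is no residual degree of freedom and no test. No paired analysis was possible because the scrambled group has 1 array without a number in the labels.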
